A study of Mus musculus with 36 samples.

Results

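The matricellular and wound matrix genes followed in the mouse soleus were Tnc, Postn, Cthrc1, Fn1, Sparc, Thbs1, Thbs2, Lox and Fbn1. They were chosen by symbol, and the reads of all transcript rows of a symbol were added, which gave 9 of the 21156 genes in the table. The soleus is a postural calf muscle, and each library was made from the ribosome-depleted total RNA of the soleus of 1 male C57BL/6J mouse. The old mice were 22 to 24 months of age and the young mice 6 months. At each age the reloaded mice had spent 10 days of hind limb unloading, in which the hind limbs bear no weight, and then 3 days of reloading (4 old and 4 young). The unloaded mice had 10 days of unloading with no recovery (6 old and 4 young), and the controls were kept under control conditions for 10 days (9 old and 9 young). The 36 libraries share 1 strain and 1 sex, and the labels name no transgene or drug.

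Matricellular proteins are secreted into the matrix around cells and act mainly as signals that change how cells hold on to it, rather than as its load-bearing fibres. Most are scarce in resting adult tissue and are made in quantity by fibroblasts and related stromal cells after injury or under changed load. Tenascin C (Tnc) loosens the grip of cells on fibronectin. Periostin (Postn) binds collagen and helps to bring the enzymes of collagen crosslinking to their substrate, and Cthrc1 is a secreted protein of activated fibroblasts in repairing tissue. Fibronectin (Fn1) forms the provisional fibrils to which integrins attach. Sparc is a collagen-binding glycoprotein that takes part in collagen fibril assembly. Lysyl oxidase (Lox) crosslinks collagen and elastin, and fibrillin 1 (Fbn1) builds the microfibrils that carry elastin and store latent TGF-beta. The thrombospondins 1 and 2 (Thbs1 and Thbs2) bind CD36 and CD47, restrain vessel growth, and in the case of thrombospondin 1 can activate latent TGF-beta.

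Gene totals ran from 32.0 to 37.9 M reads per library, and 15031 genes, all 9 of these among them, had enough reads to be tested. Levels are CPM, the reads of a gene over the scaled total of its library, and a change is a log2 fold change ± SE from edgeR, called when its adjusted p was under 0.05; adjusted p-values are over all genes tested. Slow muscle fibre markers were high in every library, the summed level of 6 of them lying between 239113 and 333492 CPM. Libraries with more than 20 CPM of the liver gene Alb numbered 6, namely old reloading replicates 2 and 4 (1743 and 154 CPM), young reloading replicates 1 and 2 (72.5 and 29.8 CPM), old unloading replicate 6 (36.2 CPM) and young unloading replicate 2 (39.6 CPM). Replicate 2 of each reloaded group also stood apart in the matrix genes, as described beside the results.

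Reloading after unloading raised 7 of the 9 genes at both ages: Tnc, Postn, Cthrc1, Fn1, Sparc, Lox and Fbn1. The other two, Thbs1 and Thbs2, were not called at either age. Over all genes tested, 27.8% were called higher in the old reloaded mice against old unloaded mice and 26.4% in the young. The median change of the 9 genes was 1.84 in old mice and 1.44 in young mice, against 0.03 and 0.06 over all genes tested. Those 7 rises were called at both ages under each alternative setting in which the gene was tested, and with any 1 library left out. In RNA from whole muscle, more cells that make a transcript and more of it per cell cannot be told apart.

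Tnc (chromosome 4, 63959785 to 64047015 on mm10) had the highest change among the 7 at both ages. Its level was 182, 23.9, 194 and 38.9 CPM in the 4 old reloaded libraries, against 5.03 to 9.02 with a median of 6.55 CPM in the old unloaded ones (3.98 ± 0.45, adjusted p = 8.35e-09), a 15.8-fold rise. In young mice it was 151, 29.2, 196 and 100.03 CPM with reloading, against 5.9, 7.2, 4.61 and 3.71 CPM with unloading alone (4.47 ± 0.55, adjusted p = 4.05e-08), a 22.2-fold rise. No reloaded library overlapped the unloaded ones, although replicates 2 and 4 of the old reloaded mice and replicate 2 of the young reloaded mice lay well under the others. The young rise ranked 25 and the old rise 115 from the highest of all 15031 genes tested.

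Postn (chromosome 3, 54361107 to 54391041) and Cthrc1 (chromosome 15, 39076932 to 39087119) followed. Postn reached 616, 82.5, 563 and 288 CPM in old reloaded mice, against 10.04 to 52.7 with a median of 30.7 CPM in old unloaded mice (3.69 ± 0.40, adjusted p = 3.92e-09). In the young it was at 258, 64.1, 250.2 and 161 CPM with reloading, against 36.1, 27.2, 20.7 and 35.2 CPM with unloading (2.62 ± 0.45, adjusted p = 1.45e-05). The old reloaded libraries other than replicate 2 were all above the highest young one. Cthrc1, the lowest of the 9 by RPKM in each group, was at 7.95, 0.994, 5.51 and 2.53 CPM in old reloaded mice, against 0.087 to 0.474 with a median of 0.304 CPM in old unloaded mice (3.81 ± 0.46, adjusted p = 2.89e-08). Its young levels were 2.88, 0.648, 3.77 and 1.97 CPM with reloading, against 0.48, 0.776, 0.43 and 0.476 CPM with unloading (2.1 ± 0.51, adjusted p = 8.70e-04). Here young reloading replicate 2 fell inside the unloaded range, and the other 7 reloaded libraries lay above their unloaded group.

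**Figure D1:**
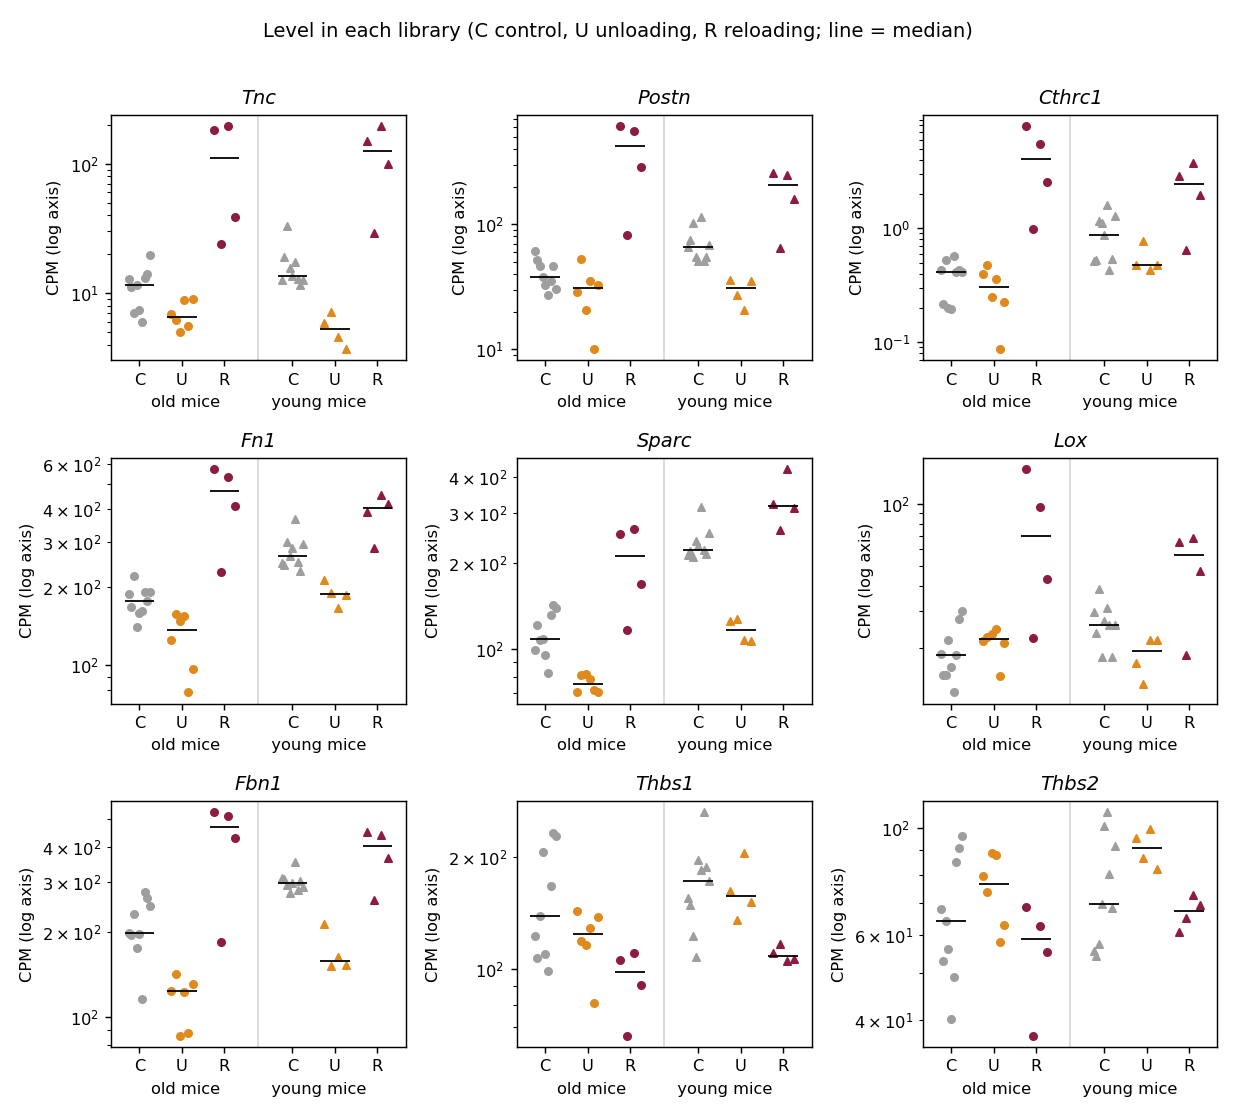
Level of each gene in all 36 libraries, in CPM on a log axis, by age and condition; each point is 1 mouse and the line is the group median. Tnc, Postn, Cthrc1, Fn1, Sparc, Lox and Fbn1 are higher with reloading than with unloading at both ages, whereas Thbs1 and Thbs2 are not; in each reloaded group replicate 2, the second point from the left, is the lowest for those 7 genes.

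The matrix scaffold genes rose less steeply. Fn1 (chromosome 1, 71585473 to 71653234) stood at 573, 229, 532 and 412 CPM in old reloaded mice, against 78.4 to 157 with a median of 137 CPM in old unloaded mice (1.78 ± 0.18, adjusted p = 9.98e-10). In young mice it stood at 390.5, 285, 454 and 420.5 CPM with reloading, against 214, 190.4, 166 and 186 CPM with unloading (1.03 ± 0.20, adjusted p = 8.59e-05). At neither age did the groups overlap. Sparc (chromosome 11, 55394159 to 55420080) measured 254, 117, 264 and 169 CPM in old reloaded mice, against 70.6 to 81.9 with a median of 75.4 CPM in old unloaded mice (1.4 ± 0.16, adjusted p = 9.11e-09). Its young values were 322, 262, 428 and 313 CPM with reloading, against 126, 127, 108 and 107 CPM with unloading (1.5 ± 0.18, adjusted p = 2.96e-08). Again every reloaded library was above every unloaded one of its age.

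Lox (chromosome 18, 52516060 to 52529867) and Fbn1 (chromosome 2, 125300594 to 125506438) are the crosslinking enzyme and the microfibril protein of the set. Lox was at 147, 22.3, 96 and 43.2 CPM in old reloaded mice, against 14.6 to 24.6 with a median of 22.1 CPM in old unloaded mice (1.86 ± 0.33, adjusted p = 1.86e-05). For the young it was at 65.4, 18.5, 68.4 and 47.1 CPM with reloading, against 16.8, 13.3, 21.8 and 21.8 CPM with unloading (1.44 ± 0.38, adjusted p = 0.00191). At both ages replicate 2 of the reloaded mice fell inside the unloaded range. Fbn1 reached 528, 184, 511 and 430.4 CPM in old reloaded mice, against 86.1 to 142 with a median of 123 CPM in old unloaded mice (1.84 ± 0.21, adjusted p = 6.12e-09). Its young reloaded levels were 450.2, 259, 440.1 and 366 CPM, against 213, 152, 164 and 153 CPM with unloading (1.15 ± 0.23, adjusted p = 1.03e-04), and at neither age did the groups overlap.

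The thrombospondins took another course. Thbs1 (chromosome 2, 118111876 to 118127133) was at 105, 66.2, 111 and 90.6 CPM in old reloaded mice, against 81.1 to 144 with a median of 124 CPM in old unloaded mice (-0.38 ± 0.23, adjusted p = 0.165). In young mice it was at 110.5, 117, 105 and 107 CPM with reloading, against 162, 135, 206 and 152 CPM with unloading (-0.58 ± 0.25, adjusted p = 0.0521). The old groups overlapped and the young groups did not, and the young difference missed the threshold here and passed it in 17 of 46 alternatives, with adjusted p between 0.00238 and 0.159. Thbs2 (chromosome 17, 14665500 to 14694262) had 68.7, 37.1, 62.5 and 55.2 CPM in old reloaded mice, against 58.1 to 88.8 with a median of 76.6 CPM in old unloaded mice (-0.43 ± 0.21, adjusted p = 0.0859). Young mice had 60.8, 65.1, 72.7 and 69.2 CPM of Thbs2 with reloading, against 95.4, 86.5, 99.4 and 82.2 CPM with unloading (-0.44 ± 0.23, adjusted p = 0.108). The old groups overlapped and the young ones were apart. All 4 differences were negative, with adjusted p between 0.0521 and 0.165. Thbs2 passed the threshold in old mice on plain library totals (-0.54, adjusted p = 0.0318) and, when only the groups compared were fitted, at both ages (adjusted p = 0.0498 in old and 0.00119 in young mice).

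Old reloading replicate 2 and young reloading replicate 2 were the lowest of their 4 libraries for all 7 genes that rose. These libraries also had the lowest summed level of 6 macrophage markers, 136 CPM against 167 to 223 CPM in the other old reloaded libraries and 86.2 CPM against 147 to 203 CPM in the other young ones. The summed level of 6 fibroblast markers was 328 CPM in old reloading replicate 2, against 371 to 481 CPM in the others of its group. In young reloading replicate 2 it was 447 CPM, inside the 442 to 518 CPM of the others. Leaving out the lowest library of a group raises the group mean, so the larger rises without replicate 2 were fixed in advance. Without old reloading replicate 2, Tnc changed by 4.31 ± 0.42 and Lox by 2.16 ± 0.30 in old mice. Without young reloading replicate 2, Tnc changed by 4.78 ± 0.51 and Lox by 1.69 ± 0.36 in young mice. Leaving out the 6 libraries with more than 20 CPM of Alb kept old reloading replicates 1 and 3 and young reloading replicates 3 and 4. That choice drops replicate 2 at both ages as well. Tnc then changed by 4.84 ± 0.34 in old mice and 4.94 ± 0.43 in young mice, and all 7 rises were called at both ages. Old reloading replicate 1, with 0.195 CPM of Alb, was the highest old reloaded library for 5 of the 7 genes.

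**Figure D2:**
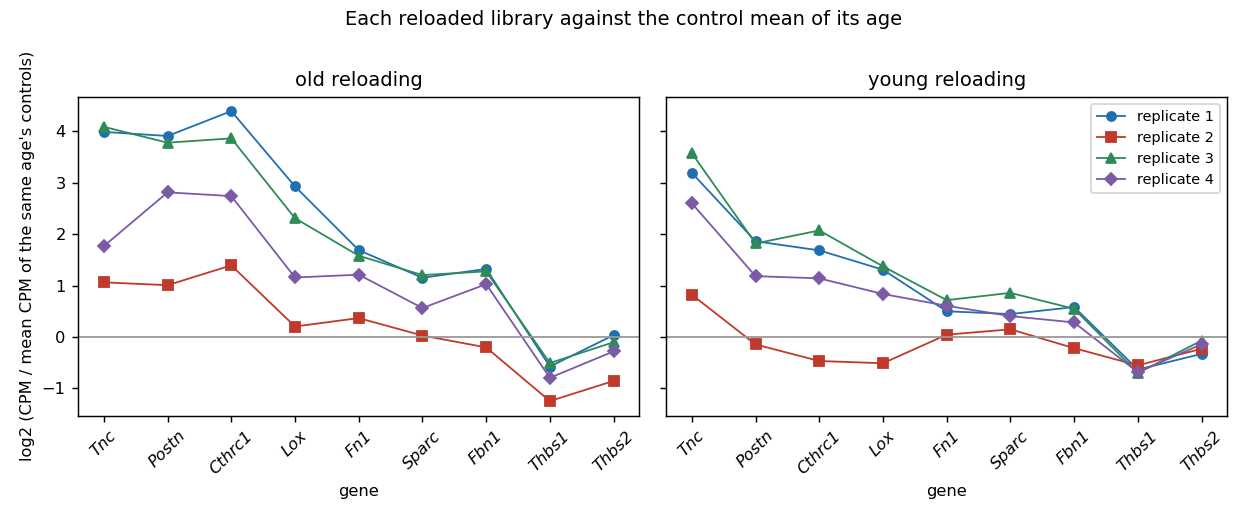
Level of each gene in each reloaded library over the mean of the 9 controls of the same age, as log2 of the ratio of CPM; each line joins the 9 genes of 1 mouse. Replicate 2 is the lowest line of each age for Tnc, Postn, Cthrc1, Fn1, Sparc, Lox and Fbn1, and Thbs1 is under the control mean in all 8 libraries.

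Markers of other cell types moved with reloading too. Macrophage markers were called higher for 5 of 6 genes in old reloaded mice against old unloaded mice (summed level 136 to 223 CPM against 85 to 124 CPM, and 4 genes on plain library totals) and for 6 of 6 in the young (86.2 to 203 CPM against 63.7 to 89.3 CPM). Of 6 fibroblast markers 4 rose and 1 fell in the old mice (summed 328 to 481 CPM against 425 to 581 CPM), and 2 rose and 2 fell in the young (442 to 518 CPM against 499 to 639 CPM). Smooth muscle and myofibroblast markers rose for 2 of 4 genes in old mice (143 to 172 CPM against 117 to 156 CPM) and 4 of 4 in young mice (178 to 219 CPM against 132 to 161 CPM). Of the tenocyte markers 1 of 6 rose at each age (73.4 to 121 CPM against 83.2 to 151 CPM in the old and 163 to 232 CPM against 122 to 188 CPM in the young). On plain library totals 1 tenocyte marker was also called lower in the old. Liver markers were called higher for 11 of 11 genes in old mice (summed 0.669 to 2875 CPM with reloading against 0.412 to 88.2 CPM with unloading), and in young mice they summed to 1.73 to 128 CPM against 0.32 to 76.2 CPM. Of 2 cartilage markers tested, 1 was called higher in old mice (median change 0.94) and 2 in young mice (median change 1.22); the 3 listed summed to no more than 3.19 CPM in any library, with Matn1 under 0.1 CPM at the median of each group. The part of these cell types in the rises was not tested.

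With reloading, Postn reads also lay on other transcripts. Periostin transcripts differ in a run of exons near the 3′ end of the coding region, each made of whole codons, so that leaving one out shortens the protein without shifting its frame. Among the differences of the 5 Postn transcripts in the table are an exon of 81 bases (exon 17 of 22 in its transcript) and an exon of 84 bases (exon 20 of 22). They differ elsewhere too. The 2 transcripts with the 81-base exon are 3211 and 3133 bases long, and the 2 with neither exon 3130 and 3052 bases. The shares below pool transcripts that differ in this other part. Sequences of the 81-base and the 84-base exon are given because the shares are counted by them. Each is shown in capitals with the 15 transcript bases on either side in lower case, 5′ to 3′ on the plus strand, from GENCODE M21 transcripts on mm10.
Postn 81-base exon, chr3:54380412-54380492: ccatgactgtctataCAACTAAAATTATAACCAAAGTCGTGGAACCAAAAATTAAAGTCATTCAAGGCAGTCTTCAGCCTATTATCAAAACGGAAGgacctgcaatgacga
Postn 84-base exon, chr3:54385671-54385754: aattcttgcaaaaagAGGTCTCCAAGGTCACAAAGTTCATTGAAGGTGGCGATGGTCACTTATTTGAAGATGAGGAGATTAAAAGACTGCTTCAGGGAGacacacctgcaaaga

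Transcripts with neither exon held 74.8, 65.7, 69.6 and 57.6% of the Postn reads in the 4 old reloaded libraries, against 15.2 to 57.1 with a median of 23% in the old unloaded ones. The young reloaded libraries had 74.4, 63.8, 70.7 and 65%, against 9.41, 15.9, 19.6 and 28.4% with unloading alone. Controls ranged from 8.13 to 36.6 with a median of 15% in old mice and from 8.62 to 41.6 with a median of 12.8% in young mice. The share in every one of the 8 reloaded libraries was above that in all other libraries, with no overlap within either age. The nearest was old unloading replicate 5, at 57.1%, just under old reloading replicate 4, at 57.6%; that unloaded library had 346 Postn reads, the fewest of all.

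The shares with each exon were lower. Transcripts with the 84-base exon took 13.5, 19, 17.6 and 26.5% of the reads in old reloaded mice, against 36.1 to 61.7 with a median of 48.5% over the old controls. In young mice they took 15.7, 17.8, 15.7 and 22.1% with reloading, against 36.1 to 66.8 with a median of 59.3% over the controls. With the 81-base exon the share was 11.7, 15.4, 12.8 and 15.9% in old reloaded mice, against 26.5 to 41.1 with a median of 33.7% in old controls. For young mice it was 9.83, 18.4, 13.5 and 12.9% with reloading, against 22.2 to 29.7 with a median of 24.3% in controls. Neither share overlapped between reloaded and control libraries at either age. In unloaded mice the 84-base exon share was 28.5 to 57.3 with a median of 50.9% in the old and 73.7, 53.5, 52.3 and 46.8% in the young, above all reloaded libraries of the same age. The 81-base exon share was 14.4 to 27.9 with a median of 26% in old and 16.9, 30.6, 28.1 and 24.9% in young unloaded mice, which overlapped the reloaded libraries at both ages.

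**Figure D3:**
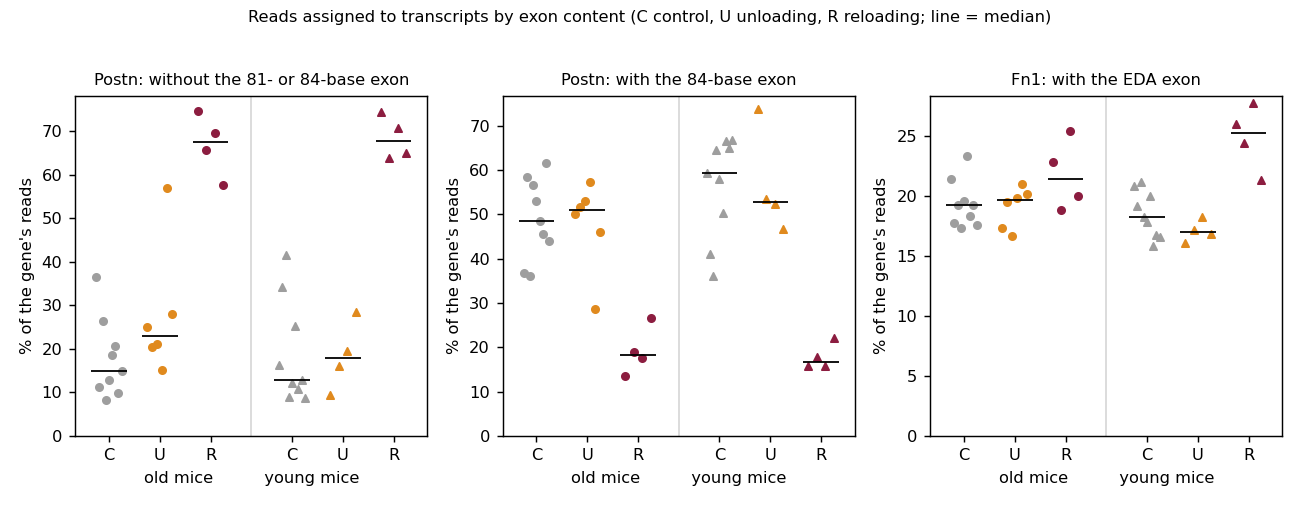
Percent of the reads of Postn and of Fn1 that were assigned to transcripts with the named exon content, by age and condition; each point is 1 library and the line is the group median. Reloaded libraries lie between 57.6% and 74.8% for Postn transcripts with neither exon, and Fn1 transcripts with the EDA exon lie at 21.3% or above in young reloaded mice and at 21.1% or below in young controls, while the old groups overlap.

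In some libraries the share and the level of Postn stood apart. Young reloading replicate 2 had 64.1 CPM of Postn, inside the range of the young controls (50.7 to 114 CPM), and 63.8% of its Postn reads were on transcripts with neither exon, against at most 41.6% in a control. Old reloading replicate 2, at 82.5 CPM and 65.7%, likewise lay among the other reloaded libraries in share and nearer the controls in level. The control libraries with the highest share (replicate 3 of the young at 41.6% and replicate 1 of the old at 36.6%) had 103 CPM and 61.1 CPM of Postn. These shares are the split that the deposited table gives for reads of 50 bases among transcripts that overlap for most of their length, so they are a description and were not tested. With the transcript of the highest mean reads over all 36 libraries in place of the sum, the Postn change was 5.41 in old reloaded mice against old unloaded mice and 4.78 in the young. That choice uses the reads of the reloaded libraries themselves, so these changes are no separate support for the shares above.

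**Figure D4:**
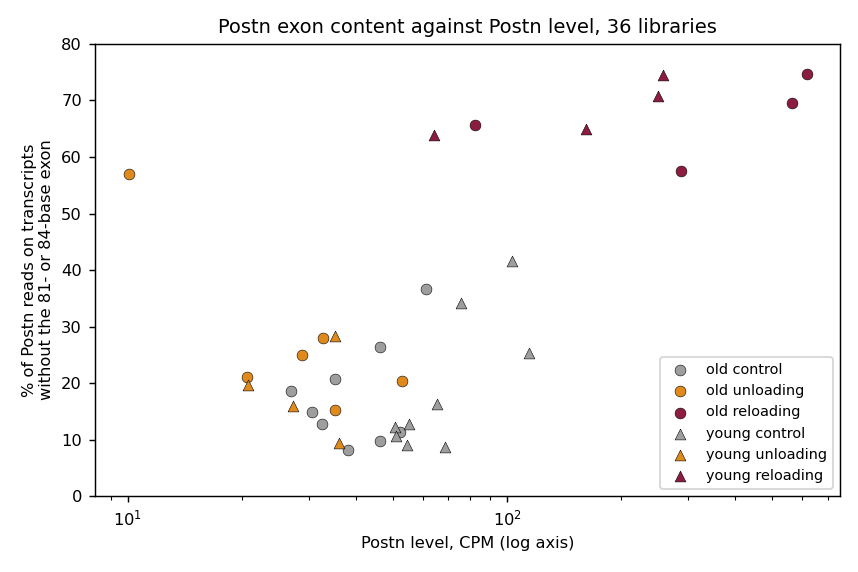
Percent of Postn reads on transcripts with neither the 81-base nor the 84-base exon, against the Postn level in CPM on a log axis, for 36 libraries. The 8 reloaded libraries lie at the top over a wide span of levels, with replicate 2 of each reloaded group at 64.1 and 82.5 CPM beside control libraries of like level and lower share; the unloaded library at the upper left has 346 Postn reads.

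Fibronectin transcripts differ in several parts. Among these are 2 exons that each encode 1 whole repeat of the protein, called EDA and EDB. Plasma fibronectin from the liver lacks them, and the fibronectin of embryos and of healing wounds carries them. EDB is exon 25 and EDA exon 33 of 46. Of the 7 Fn1 transcripts in the table, 4 hold EDA and 1 of these also holds EDB. They differ elsewhere too, as those with EDA and without EDB are 8152, 8077 and 7792 bases long. The EDA exon, with 90 codons, is shown in the same way, 5′ to 3′ on the minus strand, since most of the shares that follow are counted by it.
Fn1 EDA exon, chr1:71603660-71603929: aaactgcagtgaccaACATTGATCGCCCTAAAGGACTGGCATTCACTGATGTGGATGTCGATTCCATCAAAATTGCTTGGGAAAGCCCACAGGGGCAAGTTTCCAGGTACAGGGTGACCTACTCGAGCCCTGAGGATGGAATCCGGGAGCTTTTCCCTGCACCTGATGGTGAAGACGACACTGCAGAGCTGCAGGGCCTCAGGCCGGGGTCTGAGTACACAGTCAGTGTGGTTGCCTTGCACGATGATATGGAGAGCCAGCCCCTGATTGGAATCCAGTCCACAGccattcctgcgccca

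EDA transcripts took 22.8, 18.8, 25.4 and 20.03% of the Fn1 reads in old reloaded mice, against 17.3 to 23.3 with a median of 19.2% in old controls, and these ranges overlapped. In young mice the share was 26, 24.4, 27.7 and 21.3% with reloading, against 15.8 to 21.1 with a median of 18.3% in controls, without overlap. The EDB share was 6.03, 4.75, 6.29 and 5.33% in old reloaded mice, against 2.9 to 5.56 with a median of 4.81% in old controls. It was 6.6, 8.21, 8.83 and 5.53% in young reloaded mice, against 2.97 to 4.68 with a median of 3.78% in young controls, again separate in the young and overlapping in the old. In unloaded mice the EDA share was 16.7 to 21% in the old and 16 to 18.3% in the young. Their EDB share was 2.63 to 6.25% in the old and 2.62 to 3.74% in the young. Both shares were separate between unloaded and reloaded mice in the young and overlapped in the old. The old libraries with the most liver RNA by Alb, replicates 2 and 4, had the lowest EDA shares of the old reloaded mice. Among the young reloaded mice, replicate 4 had the least Alb (0.881 CPM) and the lowest EDA share, and replicate 1 had the most Alb and the second highest share. These shares were not tested, and neither was the part of liver transcripts in them.

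Against controls, reloading left 7 genes higher and 1 lower in old mice, and 6 higher and 1 lower in young mice. Over all genes tested, 21.8% were called higher and 21.1% lower in old reloaded mice against old controls, and 26.8% and 22.9% in the young. The median of the 9 genes was 1.30 in old mice and 0.49 in young mice, against 0.01 and 0.06 over all genes. These comparisons share their reloaded libraries with those against unloading. Macrophage markers were called higher for 6 of 6 genes at both ages (summed, with reloading against control here and for the next lists, 136 to 223 CPM against 58.6 to 88.8 CPM in the old and 86.2 to 203 CPM against 52.4 to 119 CPM in the young). Liver markers were called higher for 11 of 11 in old mice (0.669 to 2875 CPM against 0.301 to 3.51 CPM) and 3 of 11 in young mice (1.73 to 128 CPM against 0.234 to 17.8 CPM; 1 with DESeq2). Of 6 fibroblast markers 4 were higher and 1 lower in the old (328 to 481 CPM against 341 to 533 CPM). With upper quartile factors these counts were 5 and 0, and on plain library totals 3 and 1. In the young 1 fibroblast marker was higher and 1 lower (442 to 518 CPM against 426 to 643 CPM). The summed fibroblast levels thus overlapped those of controls at both ages. Tenocyte markers were lower for 4 of 6 in the old (73.4 to 121 CPM against 95.8 to 257 CPM) and 1 of 6 in the young (163 to 232 CPM against 191 to 293 CPM). Smooth muscle and myofibroblast markers were higher for 3 of 4 in the young (178 to 219 CPM against 151 to 190 CPM; 2 with DESeq2). In the old 0 of 4 were called (143 to 172 CPM against 115 to 209 CPM; 1 higher with upper quartile factors). Of 4 endothelial markers 2 were higher and 1 lower in the young, and 1 was lower in the old. Of 3 Schwann cell markers 2 were higher in the young and 1 was lower in the old. The part of these cell types in the changes against control was not tested.

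Tnc in old controls ran from 5.96 to 19.9 with a median of 11.5 CPM, under all 4 old reloaded libraries (3.26 ± 0.38, adjusted p = 2.74e-08). Young controls ran from 11.5 to 32.8 with a median of 13.7 CPM (2.85 ± 0.38, adjusted p = 1.40e-07), the highest control, replicate 3 at 32.8 CPM, lying above young reloading replicate 2. Postn had 27 to 61.1 with a median of 38.1 CPM in old controls (3.24 ± 0.35, adjusted p = 4.60e-09) and 50.7 to 114 with a median of 65.5 CPM in young controls (1.37 ± 0.35, adjusted p = 0.0013). In old mice the reloaded libraries of both genes were separate from the controls, and in young mice replicate 2 of the reloaded mice overlapped them. Cthrc1 had the highest change of the 9 against controls in old mice, 3.48 ± 0.39 (adjusted p = 1.51e-08; controls 0.195 to 0.575 with a median of 0.41 CPM), which is 11.2-fold. In young mice its change was 1.37 ± 0.39 (adjusted p = 0.00347; controls 0.429 to 1.61 with a median of 0.879 CPM). Its old reloaded libraries were separate from controls, and young reloading replicate 2, at 0.648 CPM, lay inside the control range.

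Lox rose over controls by 2.00 ± 0.30, adjusted p = 1.50e-06, in old mice and by 0.92 ± 0.30, adjusted p = 0.0113, in young mice. Fn1 rose by 1.3 ± 0.16, adjusted p = 1.14e-07, in the old and by 0.49 ± 0.17, adjusted p = 0.0154, in the young. The young Fn1 call was lost in 5 of 46 alternatives, where adjusted p ran up to 0.0881, among them those without young reloading replicate 3 or 4. Sparc rose by 0.81 ± 0.15, adjusted p = 3.08e-05, in the old and by 0.49 ± 0.15, adjusted p = 0.00629, in the young. Fbn1 rose in old mice (0.97 ± 0.19, adjusted p = 7.17e-05) and was not called in young mice (0.33 ± 0.19, adjusted p = 0.146), whose controls already held 275 to 352 with a median of 297 CPM. In old mice Fn1 was separate from controls. Old reloading replicate 2 lay inside the control range for Lox (22.3 CPM, in 12.1 to 30.0), Sparc (117 CPM, in 82.4 to 143) and Fbn1 (184 CPM, in 116 to 276). Young reloading replicate 2 lay inside it for Lox (18.5 CPM, in 18.1 to 38.6), Fn1 (285 CPM, in 232 to 368) and Sparc (262 CPM, in 211 to 315). For Fbn1 that young library lay under all young controls, at 259 CPM. Without young reloading replicate 3, the highest young reloaded library for 5 of the 7 genes, 3 of the 9 genes were called in the young in place of 7. Cthrc1 (1.02, adjusted p = 0.0503), Fn1 (0.39, adjusted p = 0.0881), Sparc (0.33, adjusted p = 0.0941) and Lox (0.72, adjusted p = 0.0806) lost their call, and Lox also lost it without young reloading replicate 1 (0.75, adjusted p = 0.0658).

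Thbs1 was the gene that fell below control. Old reloaded mice lay below old controls, which had 98.8 to 233 with a median of 139 CPM (-0.75 ± 0.22, adjusted p = 0.00515), and young reloaded mice below young controls, which had 108 to 264 with a median of 172 CPM (-0.64 ± 0.21, adjusted p = 0.0133). All 8 reloaded libraries lay under the control mean of their age, though the lowest controls overlapped them. Without the 6 libraries with more than 20 CPM of Alb, neither fall was called (-0.55 ± 0.29, adjusted p = 0.145, in old mice and -0.70 ± 0.30, adjusted p = 0.0572, in young mice). Among reloaded mice this left old replicates 1 and 3 and young replicates 3 and 4, with a greater SE at both ages. The young change was larger there than with all libraries, and the old change was smaller. Platelets carry thrombospondin 1; 1 of 5 platelet and megakaryocyte markers was called higher in reloaded mice against controls at each age, with summed levels of 9.53 to 13.5 CPM against 6.64 to 12.1 CPM in the old and 6.42 to 11.7 CPM against 4.75 to 9.51 CPM in the young. Their part in the Thbs1 level was not tested. Thbs2 was not called at either age (-0.26 ± 0.20 in old and -0.19 ± 0.19 in young mice).

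**Figure D5:**
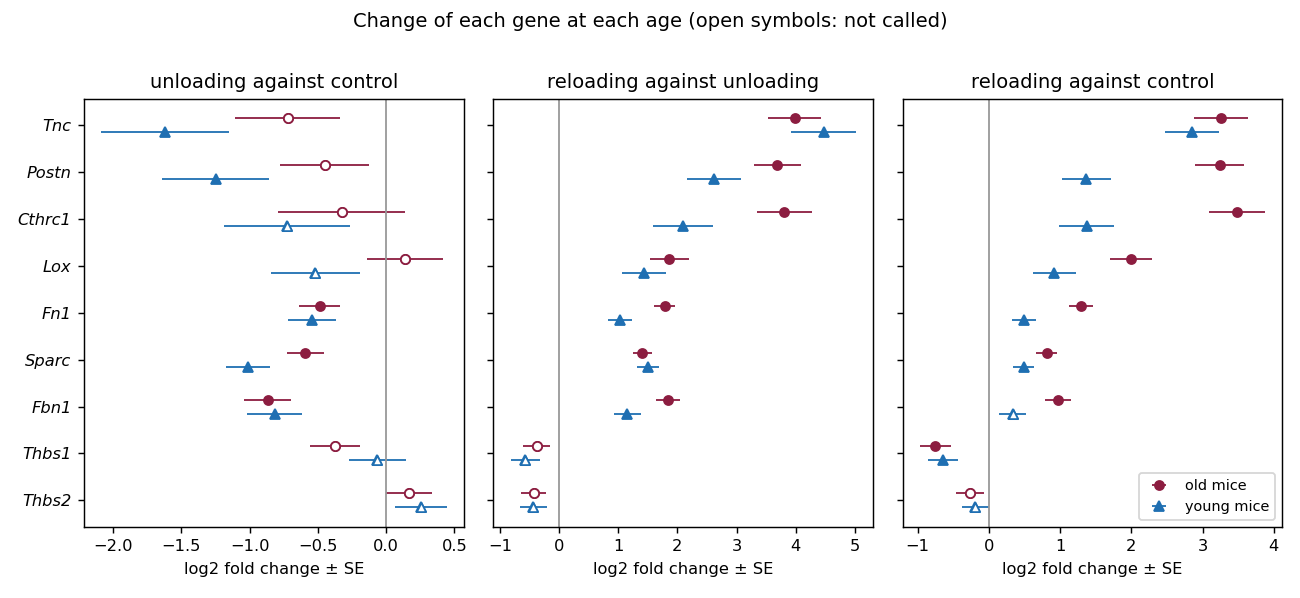
Log2 fold change ± SE of each gene for 3 comparisons at each age, with old mice drawn above young mice; open symbols were not called. Against unloading, the reloading changes of the 7 genes that rose run from 1.03 to 4.47 and those of both thrombospondins lie under 0; unloading changes against control lie under 0 for 8 genes in young and 7 in old mice.

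Unloading alone lowered 3 of the 9 genes in old mice and 5 in young mice. Over all genes, 23.2% were called lower in old unloaded mice against old controls and 21.7% in the young. The medians of the 9 genes were -0.45 in old mice and -0.73 in young mice, against 0.00 over all genes at both ages. Fibroblast markers were called lower for 3 of 6 genes at each age and higher for 1 in the old (summed, with unloading against control here and for the next lists, 425 to 581 CPM against 341 to 533 CPM in the old and 499 to 639 CPM against 426 to 643 CPM in the young). Tenocyte markers were lower for 3 of 6 in old mice (83.2 to 151 CPM against 95.8 to 257 CPM) and 2 of 6 in young mice (122 to 188 CPM against 191 to 293 CPM; 4 with DESeq2). Macrophage markers were higher for 3 of 6 in the old (85 to 124 CPM against 58.6 to 88.8 CPM) and lower for 1 of 6 in the young (63.7 to 89.3 CPM against 52.4 to 119 CPM), and liver markers were higher for 5 of 11 in the old (0.412 to 88.2 CPM against 0.301 to 3.51 CPM; 10 with DESeq2). Their part in the unloading changes was not tested. Fbn1 fell at both ages, by 0.87 ± 0.17, adjusted p = 1.30e-04, in old mice, and it fell by 0.82 ± 0.20, adjusted p = 0.00135, in young mice. Its unloaded levels ran up to 142 CPM in the old, against 116 to 276 CPM in old controls, and up to 213 CPM in the young, against 275 to 352 CPM in young controls.

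Sparc fell by 0.59 ± 0.14, adjusted p = 5.92e-04, in old mice, whose unloaded libraries all lay under the lowest control (82.4 CPM). In the young it fell by 1.01 ± 0.16, adjusted p = 4.31e-06, with no unloaded library inside the control range of 211 to 315 CPM. Fn1 fell by 0.49 ± 0.15, adjusted p = 0.0098, in the old, and it fell by 0.54 ± 0.18, adjusted p = 0.013, in the young, where the call was lost without young unloading replicate 3 (-0.48, adjusted p = 0.0582). Tnc and Postn were called lower in young mice (-1.62 ± 0.47, adjusted p = 0.00529, and -1.25 ± 0.39, adjusted p = 0.0102). Their old changes were -0.72 ± 0.38, adjusted p = 0.131, and -0.45 ± 0.33, adjusted p = 0.277, neither of them called. The old Tnc change was called in 2 of 46 alternatives, with adjusted p down to 0.0144. The young Postn call was lost in 1 of 46, with adjusted p of 0.0568. Cthrc1, Lox, Thbs1 and Thbs2 were called at neither age, with changes between -0.37 and 0.17 in old mice and between -0.73 and 0.25 in young mice.

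Among the controls, old muscle held less of 5 of the 9 genes, where 11.6% of all genes were called lower. The median of the 9 was -0.53, against 0.01 over all genes tested. Sparc had the greatest fall for its error, to 82.4 to 143 with a median of 109 CPM in old mice, against 211 to 315 with a median of 223 CPM in young mice (-1.04 ± 0.12, adjusted p = 2.07e-07), with no overlap. Fn1 was also separate between the ages, at 140.4 to 221 with a median of 177 CPM in old controls, against 232 to 368 with a median of 264 CPM in young controls (-0.63 ± 0.14, adjusted p = 8.58e-04). Cthrc1 (-1.24 ± 0.37, adjusted p = 0.0133) and Fbn1 (-0.51 ± 0.15, adjusted p = 0.0136) were lower in old controls as well. Postn was lower too (-0.79 ± 0.29, adjusted p = 0.044), a call that was lost in 15 of 46 alternatives with adjusted p of up to 0.105, 11 of them leaving out 1 control library (young replicate 1, 2, 3, 6 or 9, or old replicate 3, 4, 5, 6, 7 or 9). Tnc (-0.53 ± 0.33), Lox (-0.45 ± 0.25), Thbs1 (-0.13 ± 0.16) and Thbs2 (-0.19 ± 0.15) were not called.

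All 6 fibroblast markers were called lower in old controls, with a summed level of 341 to 533 CPM against 426 to 643 CPM in young controls, as were 3 of 6 tenocyte markers (95.8 to 257 CPM against 191 to 293 CPM), 2 of 4 endothelial markers (258 to 375 CPM against 347 to 393 CPM) and both cartilage markers tested (0.303 to 0.996 CPM against 0.938 to 3.19 CPM). Platelet and megakaryocyte markers were higher for 3 of 5. Their part in the age difference was not tested. Among unloaded mice, 2 of 6 fibroblast markers (0 on plain library totals), 1 of 6 tenocyte markers and 3 of 4 endothelial markers were lower in the old. Among unloaded mice Sparc (-0.62 ± 0.16, adjusted p = 0.012) and Fn1 (-0.58 ± 0.18, adjusted p = 0.0388) were lower in the old, 2 of 9 genes where 5.16% of all genes were called lower. The Fn1 call was lost in 11 of 46 alternatives with adjusted p of up to 0.115, among them those without young unloading replicate 1, 2 or 4 or old unloading replicate 1, 5 or 6. After reloading, Sparc was the gene called lower in the old, -0.72 ± 0.18, adjusted p = 0.00545, where 9.67% of all genes were. It was not called when only those groups were fitted (-0.72, adjusted p = 0.131) or without the 6 libraries with more than 20 CPM of Alb (-0.52 ± 0.20, adjusted p = 0.122), over a range of adjusted p from 0.00138 to 0.131 in all alternatives. Tenocyte markers were also lower in old than in young reloaded mice for 4 of 6 genes (summed, old against young here and for the next lists, 73.4 to 121 CPM against 163 to 232 CPM), endothelial markers for 2 of 4 (264 to 294 CPM against 344 to 442 CPM) and both cartilage markers tested (0.585 to 1.21 CPM against 1.71 to 2.13 CPM), and liver markers were higher for 11 of 11 (0.669 to 2875 CPM against 1.73 to 128 CPM; 3 with DESeq2). Their part in the Sparc difference was not tested. Without old reloading replicate 2, 4 genes were called between the reloaded ages: Sparc, and Cthrc1 (1.20, adjusted p = 0.0385), Lox (0.94, adjusted p = 0.0481) and Postn (1.42, adjusted p = 0.0119) higher in the old. Postn was also called without young reloading replicate 1 (1.29, adjusted p = 0.0482). Replicate 2 was the lowest library of both reloaded groups for the 7 genes that rose. Leaving it out of the old mice alone raises the old side, so the direction of that move was fixed in advance. Without the 6 libraries with more than 20 CPM of Alb, which drops replicate 2 at both ages, no gene of the 9 was called. With all libraries, the other 8 genes did not pass the test between the reloaded ages, Postn being 1.08 ± 0.43, adjusted p = 0.0722.

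Whether age altered a response was tested as the difference between the old and the young response. For the reloaded mice against controls 3 genes had a greater rise in old mice, where 2.32% of all genes were called in that direction and 2.49% in the other: Postn (1.87 ± 0.52, adjusted p = 0.0319), Cthrc1 (2.11 ± 0.58, adjusted p = 0.0308) and Fn1 (0.81 ± 0.24, adjusted p = 0.0465). All of these also started lower in old controls, and this difference uses those controls. In the same test 2 of 11 liver markers were called higher (8 with DESeq2) and 1 of 4 endothelial and 1 of 3 Schwann cell markers lower (2 of each on plain library totals); their part was not tested. Of the 9 genes the count called was 0 without young reloading replicate 2, without old reloading replicate 1 or without old reloading replicate 3, and 5 without old reloading replicate 2, when Lox (1.39 ± 0.40) and Fbn1 (0.89 ± 0.23) were added. Replicate 2 was the lowest library of both reloaded groups for the 7 genes that rose. Leaving it out of 1 age alone therefore moved these differences in a direction fixed in advance. Fn1 was lost in 27 of 46 alternatives, with adjusted p from 0.00628 to 0.129; 21 of these left out 1 library, and its value stayed between 0.65 and 1.02. Postn was also lost without young reloading replicate 4 (1.82, adjusted p = 0.0502). For reloading after unloading edgeR and DESeq2 called 0 of the 9 genes, where edgeR called 0.778% of all genes in either direction; each had 3 at an unadjusted p under 0.05, Cthrc1, Fbn1 and Fn1. Without old reloading replicate 2, Fn1 was called (0.97, adjusted p = 0.0363), again with the direction of the move fixed in advance. For unloading against control edgeR and DESeq2 called 0 of the 9, each with 1 (Sparc) at an unadjusted p under 0.05. Over all genes edgeR called 0 (0%) there, with 1487 at an unadjusted p under 0.05, and DESeq2 called 8.

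Levels per transcript length were read from the deposited RPKM values, added over the transcripts of a gene and given as mean ± SD. In controls Sparc led at 27.9 ± 5.16 RPKM in old mice and 57.9 ± 8.18 RPKM in young mice, and Cthrc1 was last at 0.209 ± 0.0778 RPKM and 0.4997 ± 0.236 RPKM. In young controls Sparc was separate from the next gene, Fn1 (22.8 ± 3.56 RPKM), while in old controls it overlapped Thbs1 (17.2 ± 5.75 RPKM). Behind came the others of Fn1, Fbn1 and Thbs1, then Postn (8.29 ± 2.28 RPKM in old and 14.5 ± 4.9 RPKM in young controls), Thbs2, Lox and Tnc, and of these neighbours Thbs2 was separate from Lox and Tnc from Cthrc1 at both ages.

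After unloading, Sparc was at 18.7 ± 1.45 RPKM in old and 28 ± 3.53 RPKM in young mice and was separate from Thbs1, the next in order at both ages. Reloading reordered the genes. In old reloaded mice Postn came first at 79.9 ± 52.3 RPKM, overlapping Sparc at 49.2 ± 18.2 RPKM and Fn1 at 35.7 ± 13 RPKM. Young reloaded mice kept Sparc first, at 84.4 ± 21.8 RPKM, separate from Postn at 39.5 ± 20.8 RPKM. Tnc, eighth of 9 in controls, was at 10.1 ± 8.47 RPKM in old and 11.4 ± 7.27 RPKM in young reloaded mice, overlapping Thbs1 there (10.3 ± 2.39 RPKM and 12.5 ± 0.569 RPKM). Thbs2 held the place before the last in old reloaded mice, at 6.08 ± 1.54 RPKM.

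The 7 genes that rose with reloading moved together from library to library. Over 36 libraries the 21 pairs among them had Pearson correlations of log2 CPM between 0.617 and 0.923, with a median of 0.866, and after the group means were removed the median was 0.726. The 14 pairs of a thrombospondin with one of the 7 had a median of -0.0607 over all libraries and of 0.46 within groups, and Thbs1 and Thbs2 correlated with each other at 0.644 over all libraries and 0.67 within groups. These are descriptions over libraries that share their groups, their depth and the same scaling.

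Among 7985 genes that averaged 8 CPM or more, those most like the mean of the 9 over the 36 libraries were Col5a2 (r = 0.964), Col16a1 (r = 0.954), Mrc2 (r = 0.952), Thbs4 (r = 0.949), Loxl2 (r = 0.945), Dpysl3 (r = 0.943), Fstl1 (r = 0.936) and Col5a1 (r = 0.935). Col5a1, Col5a2 and Col16a1 encode collagen chains, and Mrc2 is a receptor through which cells take up collagen. For single genes the closest were Arpc1b for Tnc (r = 0.946), Col8a1 for Postn (r = 0.98), Lsp1 for Cthrc1 (r = 0.957), Dpysl3 for Fn1 (r = 0.962), Col6a1 for Sparc (r = 0.983), Cilp for Lox (r = 0.874), Col16a1 for Fbn1 (r = 0.949), Med13 for Thbs1 (r = 0.759) and Scara3 for Thbs2 (r = 0.806). Those of both thrombospondins were the lowest of the 9.

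Of 62 related genes in 7 lists, 58 were tested (Tnr, Tnn, Wisp3 and Spock1 had too few reads). Reloading after unloading raised 29 (50%) and lowered 5 (8.62%) in old mice, where 27.8% of all genes were called higher and 23.5% lower. In young mice it raised 28 (48.3%) and lowered 8 (13.8%), where 26.4% of all genes were called higher and 21.5% lower. Against control, reloaded mice had 25 higher (43.1%) and 6 lower (10.3%) in the old, and 21 higher (36.2%) and 12 lower (20.7%) in the young, beside shares over all genes of 21.8 and 21.1% in the old and 26.8 and 22.9% in the young. Unloading lowered 18 (31.0%) and raised 8 (13.8%) in old mice, where 23.2% of all genes were called lower and 19.5% higher, and lowered 24 (41.4%) and raised 5 (8.62%) in young mice, where these shares were 21.7 and 19.1%. Old controls were lower than young controls in 18 (31.0%) and higher in 4 (6.90%), beside 11.6 and 12.1% of all genes.

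The relatives of Lox rose as a whole: all 6 of the lysyl oxidase family and the proteases that activate it were called higher with reloading at both ages. Loxl1, which crosslinks elastin, rose by 1.61 ± 0.15, adjusted p = 1.29e-10, in old mice and by 1.05 ± 0.17, adjusted p = 3.64e-06, in young mice. Loxl2 rose by 1.36 ± 0.15 in old and 0.77 ± 0.17 in young mice, and Bmp1, the protease that frees active lysyl oxidase, rose by 0.70 ± 0.10 in old and 0.53 ± 0.12 in young mice. Loxl3 rose by 1.16 ± 0.20 in old mice and Loxl4 by 0.71 ± 0.18 in young mice. Over controls 5 of the 6 were higher in old reloaded mice and 3 in young reloaded mice, and 4 fell with unloading at each age. The young count over controls was 4 with upper quartile factors and on plain library totals. In old unloaded mice 3 fell with upper quartile factors and 2 on plain library totals.

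The thrombospondin, tenascin and periostin relatives were mixed, with 2 of 5 tested higher at each age. Thbs4, a thrombospondin of tendon and muscle matrix, rose by 1.44 ± 0.23, adjusted p = 4.70e-06, in old mice and by 0.89 ± 0.26, adjusted p = 0.0051, in young mice. The other calls, of Thbs3 in old mice and Tnxb in young mice, were lost in 12 and 3 of 46 alternatives. Tgfbi, the paralogue of Postn, was not called with reloading after unloading (-0.08 ± 0.16 in old and 0.06 ± 0.17 in young mice), and it rose with unloading at both ages (0.64 ± 0.13, adjusted p = 1.03e-04, in old and 0.56 ± 0.14, adjusted p = 0.00177, in young mice).

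In the CCN family, matricellular proteins that signal through integrins, 1 of 5 tested genes rose at each age. That was Wisp1 (CCN4), by 2.05 ± 0.34, adjusted p = 6.91e-06, in old mice and by 1.72 ± 0.38, adjusted p = 3.39e-04, in young mice. Nov (CCN3) fell in young mice (-0.67 ± 0.24, adjusted p = 0.0196), a call lost in 3 of 46 alternatives, and Ctgf (CCN2), a gene often induced by TGF-beta, was called in no comparison of reloading with control or with unloading (-0.29 ± 0.29 in old and -0.06 ± 0.32 in young mice after unloading). Among 6 tested relatives of Sparc and osteopontin, 2 rose and 1 fell in old mice and 1 fell in young mice. Spock2 fell at both ages (-0.80 ± 0.15, adjusted p = 5.42e-05, in old and -0.62 ± 0.17, adjusted p = 0.00287, in young mice). Spock3 rose in the old (1.16 ± 0.27, adjusted p = 5.72e-04), a call lost with the transcript of the highest mean reads in place of the sum (0.18, adjusted p = 0.846), and the call of Smoc2 in the old was lost in 9 of 46 alternatives.

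Of 16 microfibril and elastic fibre genes, the partners of Fbn1, 9 rose at each age, with 2 falling in young mice. Ltbp2, which binds fibrillin microfibrils, rose by 3.24 ± 0.38, adjusted p = 1.62e-08, in old mice and by 2.29 ± 0.45, adjusted p = 7.25e-05, in young mice. Emilin1 (1.54 ± 0.18 and 1.21 ± 0.20), Mfap5 (1.47 ± 0.19 and 1.11 ± 0.21) and Efemp2, which brings Lox to elastin (0.90 ± 0.14 and 1.00 ± 0.15), rose in old and in young mice. Elastin itself, Eln, named here after its values were seen, was not called after unloading at either age (0.54 ± 0.24, adjusted p = 0.0628, in old and 0.10 ± 0.27, adjusted p = 0.787, in young mice).

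Among 11 receptors of these proteins, 6 rose and 3 fell in old mice and 6 rose and 2 fell in young mice. Itga5, whose product pairs with Itgb1 as the main fibronectin receptor, rose by 1.43 ± 0.16, adjusted p = 7.21e-09, in old mice and by 1.47 ± 0.18, adjusted p = 5.58e-08, in young mice. Itga9, a subunit of a tenascin C receptor, rose by 1.59 ± 0.15 in old and 1.24 ± 0.18 in young mice, Itgb1 by 0.90 ± 0.09 and 0.74 ± 0.10, and Itgav by 0.56 ± 0.08 and 0.67 ± 0.09. The thrombospondin receptor Cd36 was lower in reloaded mice than in controls at both ages (-0.87 ± 0.12, adjusted p = 3.06e-07, in old and -1.04 ± 0.12, adjusted p = 5.94e-09, in young mice), as was the integrin subunit Itgb5 (-0.61 ± 0.08 and -0.65 ± 0.08).

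Of 9 TGF-beta ligands, receptors and induced genes, 3 rose and 1 fell in old mice and 4 rose and 2 fell in young mice. Tgfb1 rose by 0.75 ± 0.18, adjusted p = 8.54e-04, in old mice and by 1.14 ± 0.20, adjusted p = 1.56e-05, in young mice. Tgfb3 rose at both ages after unloading (0.44 ± 0.08 and 0.38 ± 0.09), and Tgfbr3, a co-receptor gene, fell (-0.84 ± 0.08 in old and -0.52 ± 0.09 in young mice), after a rise with unloading at both ages (0.70 ± 0.06 and 0.82 ± 0.07). With plain library totals in place of TMM factors, 1 microfibril gene was called lower in old reloaded mice against old unloaded mice in place of 0, 1 relative of the thrombospondins higher in place of 2 and 1 relative of Sparc higher in place of 2. The counts of the other related lists higher and lower in that comparison were as given.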

How the data were processed

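Total RNA depleted of ribosomal RNA was sequenced single-end with reads of 50 bases on 1 flow cell, per the labels' protocols. These protocols mention 2 library kits, only 1 of them called stranded, and the use of strand when reads were counted is not known. Tools listed in the submitters' processing notes, without role or order, are Partek 6.6, TopHat2 2.0.1, TopHat and DESeq, and the build is mm10. The authors deposited, per RefSeq transcript, estimated read counts (expected counts, 55.7% of them whole within 0.01 reads) and RPKM values, per the file headers.

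From these, estimated counts were added per symbol (94.9% of sums whole) and rounded, after 56 rows whose symbols had become dates were restored from their transcript names, giving 21156 genes from 31668 rows. edgeR 4.0.16 (R 4.3.3; limma 3.58.1) was run with filterByExpr, TMM factors and the quasi-likelihood F test on 1 model of 6 groups with 30 residual degrees of freedom, two-sided, with Benjamini-Hochberg adjustment over the 15031 genes that passed the filter. The common biological coefficient of variation was 0.149. SE is the size of the log2 fold change over the square root of F, and CPM uses library totals of 32.0 to 37.9 M reads scaled by the TMM factors. The fit was tested on simulated data. Alternatives were DESeq2 1.42.0, upper quartile factors, plain library totals, no filter, at least 5 CPM in at least 4 libraries, only the groups compared, a replicate block, the transcript of the highest mean reads, no library with Alb above 20 CPM, controls 1 to 6 only, and leaving out each library. Exons were located by a match of the listed RefSeq transcripts to GENCODE M21; gene positions are those of the deposited table, on mm10, with 1 taken off its end.

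All 9 members were named whatever their result, up to 4 related genes per list and comparison in order of adjusted p, and as alike in pattern the genes of highest correlation with the mean of the 9 (8 genes) or with 1 of them (1 gene). The members, related lists and marker lists were chosen with earlier results of these data known. No batch is given in the labels. For 1 of the related genes, which is counted in its list, no values are reported here.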

Additional observations from a re-analysis of the deposited data

Results flagged for a closer look

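In groups of 4 to 10 libraries, a library was marked where its gap to the nearest other on the scale of log2(CPM + 0.5) was large against the range of its group. The 54 groups tested gave 6 marks, and chance alone marks about 1 group in 20. Young control replicate 3 had 32.8 CPM of Tnc, above the other young controls; the same library had the highest share of Postn transcripts with neither exon among the controls and the highest summed macrophage markers of the young controls, 119 CPM. Young control replicate 6 had 315 CPM of Sparc and 352 CPM of Fbn1, both above its group. Young unloading replicate 2 had 0.776 CPM of Cthrc1, above its group. Old unloading replicate 5 was below its group for Thbs1, at 81.1 CPM, and for Lox, at 14.6 CPM, and it also had the fewest Postn reads, 346.

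The rise of reloaded mice over controls differed between the ages for Postn (1.87, old minus young, on the log2 scale), Cthrc1 (2.11) and Fn1 (0.81), with adjusted p of 0.0319, 0.0308 and 0.0465 in edgeR's test of the difference itself. Leaving out young reloading replicate 2, old reloading replicate 1 or old reloading replicate 3 ended all 3 calls.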

How the results depend on the processing

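Of 48 called values of the 9 genes, 30 higher and 18 lower, 7 of the higher and 8 of the lower lost their call under at least 1 alternative and none of the 48 changed sign. Among other changes, the numbers of genes called moved as follows. Old against young unloaded mice gave 1 in place of 2 on library totals, with the replicate block and with controls 1 to 6 only, and 1 to 3 with 1 library left out. Old against young reloaded mice gave 0 in place of 1 with only the groups compared and without the libraries with Alb above 20 CPM, and 1 to 4 with 1 library left out. The age difference of reloaded against control gave 1 in place of 3 with only the groups compared, 2 on library totals and 0 to 5 with 1 library left out. Old reloaded against unloaded mice gave 7 higher and 1 lower on library totals in place of 7 and 0, as did young reloaded against unloaded mice with DESeq2. With 1 library left out, young reloaded mice against controls gave 3 to 7, the age difference of reloading after unloading 0 to 1, old against young controls 4 to 5, old reloaded mice against controls 8 and against unloaded mice 7 to 8, young reloaded against unloaded mice 7 to 8, and unloaded mice against controls 3 to 4 in the old and 4 to 5 in the young.

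Sign changes were all of values that were not called. Thbs1 in young unloaded mice against controls was 0.12 with the replicate block, 0.022 without the Alb libraries and 0.10 with controls 1 to 6 only (-0.19 to 0.037 with 1 library left out). Thbs2 in old reloaded mice against controls was 0.016 with controls 1 to 6 only. Without the Alb libraries, old minus young was -0.065 for Postn after unloading (-0.23 to 0.19 with 1 library left out) and, after reloading, 0.34 for Tnc (-0.54 to 0.24) and 0.028 for Thbs1; Fbn1 ran from -0.016 to 0.37 there. The age difference of unloading was 0.16 for Thbs2 with controls 1 to 6 only, and for Fbn1 0.030 with the replicate block and 0.16 with controls 1 to 6 only (-0.13 to 0.072 with 1 library left out; Fn1 -0.014 to 0.16). The age difference of reloading after unloading was 0.051 for Sparc without the Alb libraries (-0.25 to 0.10), and for Thbs2 -0.11 on library totals and -0.010 under the stricter filter (-0.10 to 0.17); Lox ran from -0.094 to 0.73. The age difference of reloaded against control was 0.16 for Thbs1 (-0.21 to 0.026) and 0.077 for Thbs2 (-0.18 to 0.083) without the Alb libraries, and 0.18 for Thbs2 with controls 1 to 6 only; Tnc ran from -0.012 to 0.77. The cause was not tested.

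On library totals the split of all called genes into higher and lower moved: 2919 and 4751 in place of 4180 and 3537 for old reloaded against unloaded mice, 4102 and 2461 in place of 2935 and 3490 for old unloaded mice against controls, 900 and 467 in place of 698 and 776 for old against young unloaded mice, 836 and 2370 in place of 1507 and 1453 for old against young reloaded mice, 42 and 421 in place of 74 and 43 for the age difference of reloading after unloading, where the median of all genes was -0.13, and 172 and 865 in place of 349 and 375 for that of reloaded against control. Libraries of the same mouse number in 2 groups had correlations of deviations from their group means between -0.417 and 0.428. Between the reloaded ages these were -0.417, 0.277, 0.428 and -0.211 for numbers 1 to 4. Deviations from a mean of 4 libraries are not independent, so these values cannot decide whether mouse numbers pair the libraries. With the replicate block 5 genes were called in young reloaded mice against controls in place of 7 and 8 against unloaded mice in place of 7. Cthrc1 could not be tested under the stricter filter. Counts of Cthrc1, at 0.087 CPM in its lowest library, limit its precision.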

Other observations

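The age difference of the rise over controls was called higher for 3 and lower for 3 of the 58 related genes tested, where 2.32% of all genes were called higher and 2.49% lower. Spock3, a proteoglycan relative of Sparc (1.87 ± 0.36, adjusted p = 0.00396), the microfibril gene Mfap4 (1.24 ± 0.34, adjusted p = 0.0306) and Ltbp2 (1.7 ± 0.48, adjusted p = 0.036) were further above control in old than in young reloaded mice. Tgfbr3 (-0.43 ± 0.11, adjusted p = 0.0185) and Tgfb2 (-0.64 ± 0.16, adjusted p = 0.0196) differed the other way. Tgfb2 rose over controls in young mice by 0.85 ± 0.11. The differences of Ltbp2 and Mfap4 were lost in 5 of 46 alternatives each, and those of Spock3, Tgfb2 and Tgfbr3 in 2 each.

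Endothelial markers were called higher with reloading after unloading for 1 of 4 genes in old mice (summed 264 to 294 CPM against 221 to 269 CPM) and 3 of 4 in young mice (344 to 442 CPM against 305 to 333 CPM). Of 3 Schwann cell markers 1 was called lower in old mice, 3 on plain library totals and 2 with DESeq2 (21.7 to 32.3 CPM against 30.8 to 41.9 CPM), and in young mice they summed to 27.5 to 48.4 CPM against 29.2 to 36.4 CPM. The 2 transcripts of Thbs1 in the table kept a like split in all groups, the shorter one holding a median of 36.1% to 38.2% of the reads by group. The longest of 3 Lox transcripts held a median of 32.9% to 37.5%.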
